A study of Mus musculus with 23 samples.

Results

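The transcriptomes of 2 wild-type neuron populations of the mouse hippocampus were compared gene by gene: Grik pyramidal cells, described in the labels as excitatory, and SST interneurons, which carry the peptide somatostatin. The comparison used 8 of the 23 libraries of the series, chosen by population and genotype label alone: Grik WT replicates 3, 4, 5 and 6 and SST WT replicates 1, 2, 3 and 5. All libraries were polyA RNA of the hippocampus sequenced from mice whose genotype is labelled by Slm2 (gene symbol Khdrbs3), a splicing regulator, as wild type (WT) or conditional knockout (cKO). The other libraries are 4 Grik and 4 SST libraries labelled cKO, 4 CamK WT and 3 CamK libraries labelled cKO, where CamK names a further pyramidal population. According to the series' design text, the excitatory populations belong to fields CA1 and CA3. Age, sex, strain, the driver lines and the way cells or their RNA were isolated are not given in the sources used here. Nor is it stated that replicates are separate animals, so p-values measure the spread between these samples, which may be technical.

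Pyramidal cells of CA3 excite their targets with glutamate, receive the mossy fibre input of the dentate gyrus and excite each other through recurrent collaterals. Somatostatin interneurons release GABA together with peptides, mostly onto distal dendrites, and are typically driven by the pyramidal cells around them. The 2 types arise from different embryonic sources, the cortical ventricular zone and the medial ganglionic eminence, under different transcription factors.

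Each of the 8 libraries held 90806560 to 112993538 reads counted in genes, and levels are given as CPM, the counts in each 1000000 reads after scaling between libraries. Between 21166 and 22419 genes had a read. The first principal component of the 8 libraries held 78.05% of the variance and separated Grik from SST, and the second held 4.89%. By chi-square on raw counts, in which abundant genes weigh most, SST replicates 1 and 2 stood apart from replicates 3 and 5. Per degree of freedom it was 75.1 between 1 and 2 and 89.5 between 3 and 5, but 158.6 to 188.9 across. Among the Grik libraries it was 29.7 to 81.2. The second component, from log CPM, did not show that split. SST replicates 1, 2, 3 and 5 stood there at 7.1, 13.8, 7.3 and -26.7, and Grik replicates ran from -43.4 to 27.2. Grik replicates 3 and 4 had Xist reads and nearly none of Y-linked genes, Grik replicates 5 and 6 and SST replicates 1, 2 and 3 had the reverse, and SST replicate 5 had both (25.7 CPM of Xist and 70.5 CPM summed over Y-linked genes). A fit with the level of sex-linked genes as a covariate called 10436 genes against 10794 without it. Results are given for all 8 libraries, and without SST replicates 1 and 2 or without 3 and 5 where that changed the call of a named gene or moved its fold by more than 1.5 times.

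The 4 markers followed the labels in all 8 libraries. Values per library are listed in the order Grik replicates 3, 4, 5 and 6 and SST replicates 1, 2, 3 and 5. Slc17a7, the vesicular glutamate transporter of forebrain pyramidal cells (chromosome 7, 45163949 to 45176142, plus strand), stood at 1270, 1420, 1748 and 1821 CPM in Grik and 71.8, 121, 72.9 and 67.7 CPM in SST. The lowest Grik library was far above the highest SST library, and the log2 fold change, counted throughout as Grik minus SST, was 4.23 (SE 0.27, adjusted p 5.92e-11). Grik4, a high-affinity kainate receptor subunit enriched in CA3 (chromosome 9, 42518135 to 42944493, minus strand), stood at 120, 130, 146 and 131 CPM in Grik and 14.7, 16.3, 14.4 and 13.3 CPM in SST. Its groups were tight and well apart (log2 fold change 3.16, SE 0.11, adjusted p 6.49e-18). Gad1, the gene of the GABA-synthesizing enzyme GAD67 (chromosome 2, 70553072 to 70602014, plus strand), stood at 48.5, 57.0, 44.1 and 59.8 CPM in Grik and 2588, 3087, 2837 and 2546 CPM in SST. The SST libraries were close to each other and far above the highest Grik library (log2 fold change -5.72, SE 0.28, adjusted p 8.49e-13). Sst, the somatostatin gene (chromosome 16, 23889573 to 23890958, minus strand), stood at 7.40, 6.93, 10.6 and 7.64 CPM in Grik and 1720, 159, 554 and 1557 CPM in SST. The groups did not overlap (log2 fold change -6.94, SE 0.63, adjusted p 2.15e-08), but the SST libraries themselves differed, with replicate 2 lowest and replicate 1 highest, while Gad1 was even across the same libraries. These are bulk samples, in which fewer cells of a type and less RNA per cell cannot be told apart.

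**Figure D1:**
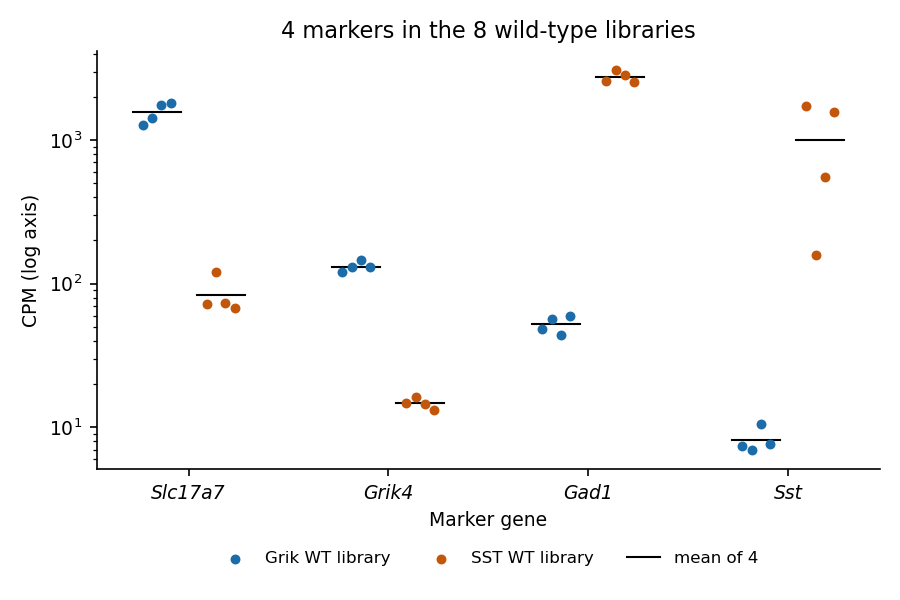
CPM of the 4 marker genes in each of the 8 wild-type libraries, on a log axis, with points for libraries and bars for the mean of 4. Slc17a7 and Grik4 are higher in every Grik library and Gad1 and Sst in every SST library, and Sst runs from 159 to 1720 CPM among the SST libraries.

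The promoter sequences of the most contrasted marker of each population are shown to place these levels beside the DNA at their start sites. They are the 250 bases before the RefSeq start in GRCm38.p6, 5′ to 3′ on the gene's strand, at chr16:23890845-23891094 (minus strand) for Sst and chr7:45163671-45163920 (plus strand) for Slc17a7. Capitals mark the cyclic AMP response element TGACGTCA, a palindrome, whose first base lies at position -48 in Sst.
Sst: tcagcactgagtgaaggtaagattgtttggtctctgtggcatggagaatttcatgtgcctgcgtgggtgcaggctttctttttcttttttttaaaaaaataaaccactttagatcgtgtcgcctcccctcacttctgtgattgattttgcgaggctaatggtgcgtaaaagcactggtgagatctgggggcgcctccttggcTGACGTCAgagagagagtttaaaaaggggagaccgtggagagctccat
Slc17a7: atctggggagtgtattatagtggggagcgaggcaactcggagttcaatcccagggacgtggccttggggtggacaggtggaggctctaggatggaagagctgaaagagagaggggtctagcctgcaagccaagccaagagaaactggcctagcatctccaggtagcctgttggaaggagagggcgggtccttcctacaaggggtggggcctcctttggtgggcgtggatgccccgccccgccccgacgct
None of TGACGTCA, the E-box CAGATG or the homeodomain core TAATTA, each searched on both strands, occurred in this window of Slc17a7, and only the first occurred in that of Sst. Promoters matched 12869 of the 18823 genes tested, and 2.55% of those held TGACGTCA, as did 1.03% of the 1560 promoters of genes called at least 2-fold higher in Grik and 2.01% of the 1838 of genes called at least 2-fold higher in SST. CAGATG occurred in 10.8% of all tested genes' promoters, 13.7% of the Grik set and 12.2% of the SST set, and TAATTA in 2.67, 3.27 and 3.75%. Over all 32851 RefSeq promoters the shares were 1.55% for TGACGTCA, 14.4% for CAGATG and 4.84% for TAATTA. The last 2 lie above both called sets. These motifs were chosen after values were seen, and the shares describe letters in a window, not binding.

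Across the genome the 2 populations differed in most of the genes tested. Of 18823 genes, 10794 (57.3%) passed an adjusted p of 0.05, 5291 of them higher in Grik (28.1%) and 5503 higher in SST (29.2%). At least 2-fold differences were called for 2217 genes higher in Grik (11.8%) and 2742 higher in SST (14.6%). The SST-enriched side had the longer tail. Among genes averaging at least 10 CPM in the higher population, 51 were at least 16-fold higher in Grik and 155 in SST, while 978 and 915 were at least 2-fold higher. SST libraries held a median of 8.02% of the Grik level of glutamatergic identity genes. Grik libraries held a median of 0.989% of the SST level of GABAergic identity genes. The part of these unequal levels in the tails was not tested. In 4848 genes (25.8%) every Grik library was above every SST library, and in 5002 (26.6%) the reverse held. The share of calls that were higher in Grik was 49.02%, and it was 38.83% (4284 against 6748) when libraries were scaled by their totals alone, which moved the median log2 fold change of all genes from -0.03 to -0.16.

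Transcript classes differed in how often they were called. Among 15302 protein-coding genes 4818 were higher in Grik and 4731 in SST. Long intergenic RNAs gave 130 and 177 of 611 and antisense RNAs 112 and 228 of 686, and processed pseudogenes gave 103 and 51 of 1149. No source used here says whether counting took strand into account. For antisense RNAs and for the 6588 tested genes whose exons overlap another gene, reads of both genes cannot be told apart.

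**Figure D2:**
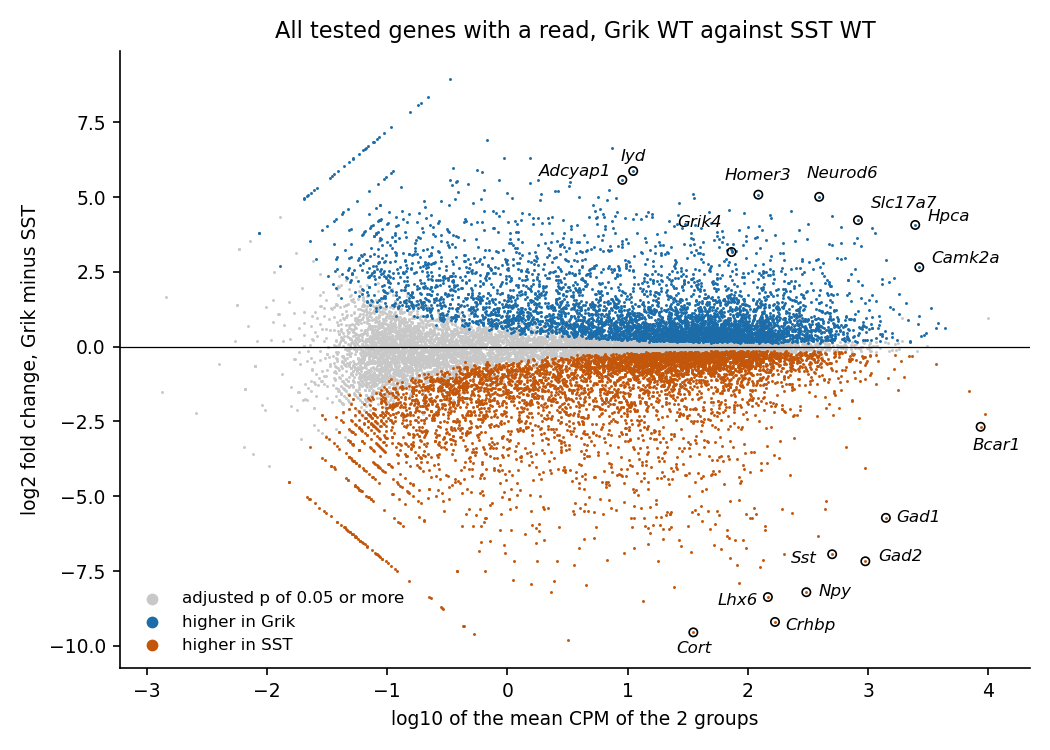
Each point is 1 gene, with the log10 of its mean CPM over both populations on the x axis and its log2 fold change, Grik minus SST, on the y axis; the 5 tested genes without a read in the 8 libraries are not drawn. Blue and orange points passed the threshold, circles mark named genes, and straight rows at the left are genes with few or no reads in 1 population, whose fitted fold is not a bound.

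The same 2 populations were also sequenced as libraries labelled cKO, which share no sample with the wild-type comparison. Among these, 10907 genes (57.9%) were called, 5260 higher in Grik (27.9%) and 5647 higher in SST (30.0%). Calls shared in the same direction numbered 9526, which is 88.25% of the wild-type calls and 87.34% of the calls in the libraries labelled cKO, and 1 gene was called in opposite directions. Of the 4959 genes called with at least a 2-fold difference in wild type, 4920 had the same direction and 4465 were also called in the libraries labelled cKO. All 51 genes picked for their size of change or as markers were called in the same direction there.

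The genes with the largest fold differences toward SST included peptides and transcription factors. Cort, which encodes cortistatin, a peptide related to somatostatin, stood at 0.0115, 0.127, 0.126 and 0.105 CPM in Grik and 72.5, 101, 54.3 and 53.8 CPM in SST. In reads this was 1 to 11 per Grik library and 5338 to 9467 per SST library (log2 fold change -9.55, SE 0.33, adjusted p 2.27e-16). Crhbp, the binding protein of corticotropin-releasing hormone, averaged 0.569 ± 0.239 CPM (SD, n = 4) in Grik and 336 ± 64.9 CPM (SD, n = 4) in SST (log2 fold change -9.20, SE 0.29). Npy, neuropeptide Y, averaged 2.07 ± 0.641 and 611 ± 117 CPM (SD, n = 4 each; log2 fold change -8.21, SE 0.26). The Npy level was even across the SST libraries, from 520 to 769 CPM, unlike that of Sst.

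Lhx6, a transcription factor that specifies interneurons of the medial ganglionic eminence, stood at 0.699 to 1.10 CPM in Grik and 264 to 310 CPM in SST (log2 fold change -8.37, SE 0.30). Sp9 and Dlx6, which also act in interneuron development, had log2 fold changes of -8.03 and -7.17. Sp9 reached 69.8 CPM in SST replicate 1 against 40.7 to 42.4 in the other 3. Among the rest of the 15 were the G protein subunit Gna14 (-8.50), the postsynaptic adhesion protein Elfn1 (-7.37), the GABA-synthesizing enzyme gene Gad2 (-7.17), the catecholamine enzyme gene Th (-7.14), the neurexin ligand Nxph1 (-7.13), Pvalb (-7.06) and Sst. Pvalb encodes parvalbumin, the calcium-binding protein that marks a different interneuron class, and averaged 140 ± 25.3 CPM in SST and 1.05 ± 0.355 CPM in Grik (SD, n = 4 each). In the libraries labelled cKO the absolute log2 fold changes of these 15 genes were 6.85 to 9.80.

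The largest folds toward Grik were smaller and fell on a mixed set of genes. Iyd, an iodotyrosine deiodinase gene from the CA3 marker list, stood at 19.8, 19.2, 23.1 and 25.4 CPM in Grik and 0.386, 0.436, 0.284 and 0.383 CPM in SST (log2 fold change 5.87, SE 0.32, adjusted p 5.95e-13). Adcyap1, the gene of the peptide PACAP, averaged 17.7 ± 2.03 and 0.372 ± 0.106 CPM (SD, n = 4 each; log2 fold change 5.58, SE 0.35). Neurod6, a transcription factor of forebrain glutamatergic neurons, averaged 761 ± 93.1 and 23.6 ± 7.20 CPM (SD, n = 4 each; log2 fold change 5.01, SE 0.22). Homer3, a postsynaptic scaffold that binds group I metabotropic glutamate receptors, stood at 213 to 263 CPM in Grik and 6.24 to 8.55 CPM in SST (log2 fold change 5.08, SE 0.20).

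Cyp26b1, which degrades retinoic acid, had a log2 fold change of 5.12. Ptgs2, the inducible cyclooxygenase of prostaglandin synthesis, averaged 51.7 ± 5.04 CPM in Grik and 1.85 ± 0.753 CPM in SST (SD, n = 4 each; log2 fold change 4.81), and Slco2a1, a prostaglandin transporter, had a log2 fold change of 5.0. The secreted or surface proteins Smoc2 (4.98), Il16 (4.57), Nrn1 (4.55) and Loxl1 (4.53) followed, with Syna (5.23), a gene of retroviral envelope origin, and the homeobox gene Sebox (4.98). Ifi203 (4.91) and Mndal (4.59) are related, overlapping interferon-inducible genes on chromosome 1, so how reads divide between them is uncertain. In the libraries labelled cKO the log2 fold changes of the 15 were 3.80 to 5.46. Exons of 15 of the 51 genes picked for their size of change or as markers overlap another gene, Grik4, Lhx6 and Homer3 among them.

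Differences in absolute level singled out other genes. By the difference of mean CPM, which favours long and abundant transcripts, the 10 genes highest in Grik included a calcium sensor, kinases and a phosphatase. Hpca, the neuronal calcium sensor hippocalcin, stood at 4389, 4569, 5074 and 4620 CPM in Grik and 258, 302, 268 and 283 CPM in SST (log2 fold change 4.07, SE 0.13, adjusted p 6.49e-18). Camk2a, the alpha subunit of calcium/calmodulin-dependent kinase II, averaged 4609 ± 313 and 731 ± 59.1 CPM (SD, n = 4 each; log2 fold change 2.66, SE 0.08). Ptk2b, a calcium-activated tyrosine kinase, and Ppp3ca, the catalytic subunit of calcineurin, had log2 fold changes of 3.81 and 2.18. Neurochondrin (Ncdn, 1.29), Enc1 (2.91), the Rac regulator Chn1 (2.30), the 14-3-3 protein Ywhah (1.75) and complexin 2 (Cplx2, 1.45) were also among the 10.

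Toward SST the same rule gave GABA metabolism genes and 3 genes with very high and uneven levels, among others. Abat, which breaks down GABA, averaged 118 ± 6.63 CPM in Grik and 1197 ± 93.3 CPM in SST (SD, n = 4 each; log2 fold change -3.34, SE 0.11), and Gad1 and Gad2 were among the 10. Complexin 1 (Cplx1) averaged 957 ± 63.4 and 2588 ± 134 CPM (log2 fold change -1.44, SE 0.10), the opposite direction to Cplx2. Nap1l5, an imprinted gene of the nucleosome assembly family, stood at 102, 107, 99.4 and 120 CPM in Grik and 1674, 1784, 1758 and 1887 CPM in SST. Both groups were tight (log2 fold change -4.05, SE 0.09, adjusted p 2.12e-20). Zwint (-1.01) and Ndrg4 (-0.58) differed less in fold but lay on a high level in both populations.

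The 3 uneven genes were Bcar1 and Efs, adaptor proteins of the same Cas family, and Trp53bp1, a DNA damage response gene. Bcar1 stood at 1774, 1866, 2526 and 3182 CPM in Grik and 21023, 17459, 7246 and 14107 CPM in SST (log2 fold change -2.68, SE 0.39, adjusted p 8.76e-06). Trp53bp1 stood at 2803, 2856, 2854 and 4654 CPM in Grik and 21109, 13247, 9694 and 18582 CPM in SST (log2 fold change -2.25, SE 0.38, adjusted p 4.66e-05). Efs stood at 201, 211, 325 and 344 CPM in Grik and 2035, 1394, 733 and 1477 CPM in SST (log2 fold change -2.38, SE 0.40, adjusted p 4.79e-05). In each of the 3, SST replicate 1 was highest and replicate 3 lowest, and the groups did not overlap. Their differences were -1.75, -1.34 and -1.81 in the libraries labelled cKO. In CamK WT they stood lower than in Grik WT, at 815 ± 258, 1034 ± 347 and 93.8 ± 28.9 CPM (SD, n = 4 each).

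Levels per kilobase of exon were divided by the joint length of all annotated exons of a gene. They compare genes only roughly, since the transcripts expressed can be shorter. By this measure Bcar1 was the most abundant protein-coding gene of the SST libraries at 3289.9 CPM per kb. Sst followed at 1383.6, a mean carried by replicates 1 and 5, and then Cplx1 at 1182.1, Trp53bp1 at 1105.5 and Npy at 1080.0 CPM per kb. In Grik the leading genes were Calm2 at 1902.9, Hpca at 1595.8, the glycolytic enzyme gene Aldoa at 1524.7 and Nrgn, the calmodulin-binding protein neurogranin, at 1405.3 CPM per kb. Calm2 and Aldoa were also among the leading genes of SST, at 1026.3 and 979.8 CPM per kb.

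Some genes split the SST libraries more than they separated the populations, and 3 chosen after their values were seen show the pattern. Map1b, a microtubule-associated protein, stood at 3811, 4620, 3626 and 2632 CPM in Grik and 13232, 20187, 3897 and 3790 CPM in SST, so that only SST replicates 1 and 2 were above the Grik range. Its log2 fold change was -1.48 (SE 0.49, adjusted p 0.0146), -0.93 (adjusted p 0.100) without SST replicate 2 alone and -0.06 (adjusted p 0.915) without replicates 1 and 2. In a fit of the wild-type Grik and SST libraries alone it was not called (adjusted p 0.0813). Setd2, a histone methyltransferase gene, followed the same libraries, with 1131 and 1810 CPM in SST replicates 1 and 2, 224 and 216 CPM in 3 and 5 and 124 to 212 CPM in Grik. Its log2 fold change of -2.29 (SE 0.61, adjusted p 0.00361) became -1.60 (adjusted p 0.0247) without SST replicate 2 and -0.35 (adjusted p 0.588) without replicates 1 and 2. Lars2, a mitochondrial leucyl-tRNA synthetase gene, ran the other way, at 190 and 319 CPM in SST replicates 1 and 2 and 1583 and 3113 CPM in 3 and 5. It was not called over all 8 libraries (log2 fold change 0.95, SE 0.84, adjusted p 0.354) but was without replicates 3 and 5 (3.30, adjusted p 0.0124) and with limma-voom (1.80, adjusted p 0.0334). Without SST replicate 5 alone its value was 1.85 (adjusted p 0.0890). Leaving out the other pair gave -2.19 for Map1b and -3.09 for Setd2 without replicates 3 and 5, and 0.10 for Lars2 without replicates 1 and 2. What sets these libraries apart was not tested.

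**Figure D3:**
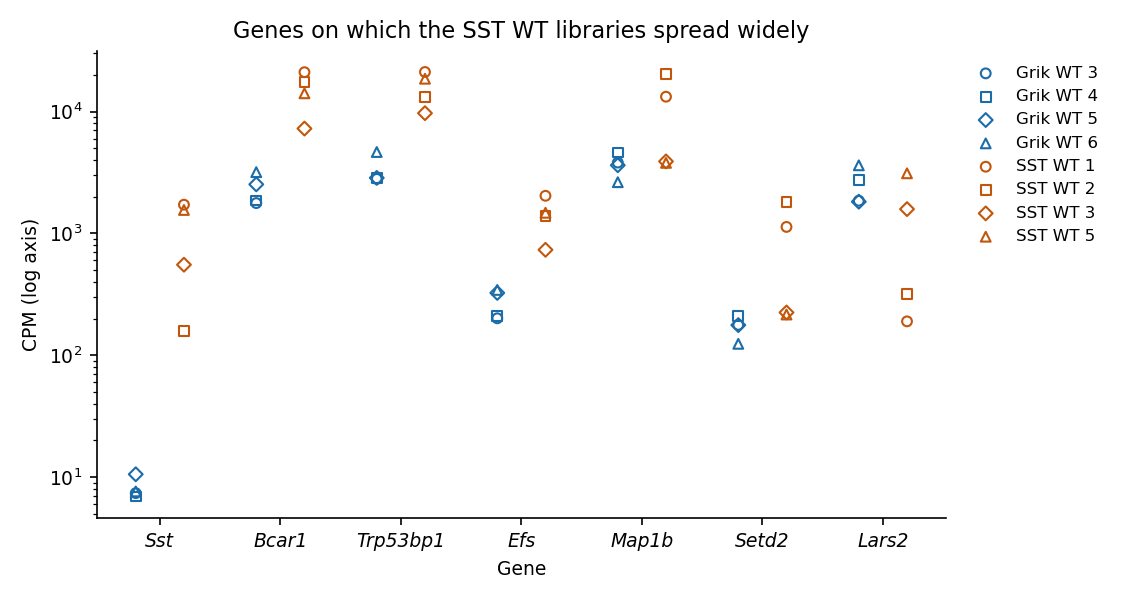
CPM of 7 genes in the 8 wild-type libraries on a log axis, with 1 marker shape per replicate. For Map1b and Setd2 SST replicates 1 and 2 lie above all other libraries, for Lars2 they lie below, and for Bcar1, Trp53bp1 and Efs all SST libraries lie above all Grik libraries.

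Gene lists by role follow. They were chosen with earlier results of these data known, so their counts describe the populations and are not independent evidence of direction. Over all genes tested the median log2 fold change was -0.03, with 28.1% called higher in Grik and 29.2% in SST.

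Glutamatergic identity genes were higher in Grik in 15 of 16 cases, with a median log2 fold change of 3.65. Their sum was 11780 to 13410 CPM in Grik libraries and 1081 to 1293 CPM in SST libraries. Nrgn averaged 2042 ± 255 and 132 ± 7.5 CPM (SD, n = 4 each; log2 fold change 3.95), and the synaptic vesicle protein gene Sv2b stood at 925 to 996 CPM in Grik and 35.4 to 70.2 CPM in SST (4.38). The transcription factors Neurod2 (3.90) and Tbr1 (4.05) were higher in Grik. Slc17a6, the second vesicular glutamate transporter, was low in both, at 2.79 ± 0.693 and 0.769 ± 0.361 CPM (SD, n = 4 each; log2 fold change 1.86, SE 0.39). SST libraries held 3.11 to 62.2% of the Grik level of these genes, with a median of 8.02%, and none was at 0 reads.

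Genes that mark the hippocampal fields differed by field. Of the 13 CA3 genes, 12 were higher in Grik and 1 in SST, with a median log2 fold change of 2.93. Cpne4, a calcium-dependent membrane-binding protein, stood at 483 to 522 CPM in Grik and 51.5 to 80.5 CPM in SST (2.93, SE 0.20), and the secreted Wnt modulator Dkk3 had a log2 fold change of 3.92. Coch was the exception, at 5.15 ± 0.300 CPM in Grik and 11.1 ± 3.53 CPM in SST (SD, n = 4 each; -1.11, adjusted p 5.31e-06), and SST replicate 5 alone reached 16.4 CPM. Of 9 CA1 genes, 1 was higher in Grik and 4 in SST. Wfs1, the usual CA1 marker, was not called, at 24.7 ± 4.45 and 24.4 ± 11.3 CPM (SD, n = 4 each; 95% interval of the log2 fold change -0.62 to 0.65). SST replicate 5 was high there too, at 41.3 CPM against 17.8 to 20.5 CPM in the other 3. Mpped1 was lower in Grik (17.1 to 33.5 CPM) than in SST (323 to 347 CPM), and Spink8 was the CA1 gene higher in Grik (10.7 ± 1.92 against 1.11 ± 0.178 CPM; SD, n = 4 each).

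Genes of CA2 and the dentate gyrus were mixed, with 10 of 15 higher in Grik and 4 in SST. Amigo2, an adhesion gene of CA2 and CA3, had a log2 fold change of 3.07. Prox1, the transcription factor of dentate granule cells, was at 74.0 to 87.2 CPM in Grik and 15.5 to 22.9 CPM in SST (2.15, SE 0.29). C1ql2, a secreted mossy fibre protein, was at 25.5 to 34.5 and 2.50 to 3.99 CPM (3.13, SE 0.24). The cation channel gene Trpc6 and the SNARE-binding gene Stxbp6 were higher in SST (-3.37 and -1.93). Summed over the list the libraries overlapped, at 489.3 to 521.7 CPM in Grik and 474.1 to 525.3 CPM in SST. The part of dentate cells in the Grik libraries was not tested.

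All 18 GABAergic identity genes were higher in SST, with a median log2 fold change of -6.66 and no overlap between libraries in any of them. Their sum was 7557 to 8370 CPM in SST and 185.7 to 223.3 CPM in Grik. Slc32a1, the vesicular GABA transporter, stood at 1.88, 2.46, 3.37 and 5.38 CPM in Grik and 420, 428, 360 and 384 CPM in SST (log2 fold change -6.93, SE 0.64, adjusted p 3.03e-08). Satb1, a chromatin organizer of interneurons, was the least contrasted, at 86.3 ± 4.50 and 364 ± 37.3 CPM (SD, n = 4 each; -2.08). Grik libraries held 0.302 to 23.7% of the SST level of these genes, with a median of 0.989%.

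Of 14 genes of somatostatin interneurons 13 were higher in SST and 1 in Grik. Reln, the secreted glycoprotein reelin, stood at 3.32 to 4.88 CPM in Grik and 215, 297, 291 and 301 CPM in SST (-6.12, SE 0.46). Calb1, calbindin, differed less, at 68.3 ± 8.12 and 253 ± 61.5 CPM (SD, n = 4 each; -1.89). Chrna2 and Chodl, which mark restricted subtypes, were rare, with 199 to 449 and 127 to 361 reads per SST library and at most 2 and 3 reads in any Grik library. Nos1, neuronal nitric oxide synthase, was the member higher in Grik, at 208 ± 24.3 and 169 ± 16.7 CPM (SD, n = 4 each; 0.30, SE 0.12, adjusted p 0.0390). That call was lost under 11 of 23 alternatives, among them library-total scaling, where the log2 fold change was 0.17, and leaving out Grik replicate 3 or 4 or SST replicate 1 or 2. Without SST replicates 1 and 2 together it was 0.19 (adjusted p 0.319).

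Markers of other interneurons were not all higher in the same population, with 5 of 13 higher in Grik and 7 in SST. Calb2, calretinin, which some interneurons and the mossy cells of the dentate hilus hold, stood at 311, 328, 339 and 347 CPM in Grik and 30.3, 32.0, 38.0 and 51.8 CPM in SST. The Grik libraries were thus far above the SST libraries (log2 fold change 3.12, SE 0.31, adjusted p 6.43e-08). Vip, vasoactive intestinal peptide, stood at 6.81, 11.5, 6.79 and 17.1 CPM in Grik and 0.342 to 0.772 CPM in SST (4.11, SE 0.57). Cck, a peptide of both pyramidal cells and basket cells, was at 249 to 354 CPM in Grik and 13.4 to 18.8 CPM in SST (4.29, SE 0.19), and Lamp5 had a log2 fold change of 1.83. Ndnf, a gene of neurogliaform cells, was higher in SST (-5.13).

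Glial and vascular genes were present in both populations at levels that moved with the comparison in part. Of 7 oligodendrocyte genes 4 were higher in Grik (2 to 5 over the alternatives), and the list summed to 693.8 to 936.7 CPM in Grik and 301.7 to 679.4 CPM in SST, so that every Grik library was above every SST library. Mbp, myelin basic protein, was not called, at 246 ± 29.6 and 223 ± 113 CPM (SD, n = 4 each; adjusted p 0.759). Of 6 astrocyte genes 1 was called, Gfap (14.8 ± 3.47 and 27.1 ± 10.7 CPM; -0.87, adjusted p 0.0227), and its call was lost under 6 of 23 alternatives, among them without SST replicate 2, without any 1 of Grik replicates 3, 5 and 6, and without SST replicates 1 and 2 (-0.44, adjusted p 0.315). The astrocyte list summed to 57.0 to 66.9 CPM in Grik and 59.2 to 111.3 CPM in SST. Of 10 microglial and vascular genes 4 were higher in SST, such as the endothelial receptor gene Flt1 (0.598 to 1.52 against 3.59 to 15.3 CPM; -3.02), and 1 in Grik, the pericyte gene Rgs5 (30.7 ± 4.40 against 13.7 ± 6.95 CPM; SD, n = 4 each). No member of the 3 lists was at 0 reads in either population. A fit with the mean level of these lists as a covariate called 10877 genes between Grik and SST.

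**Figure D4:**
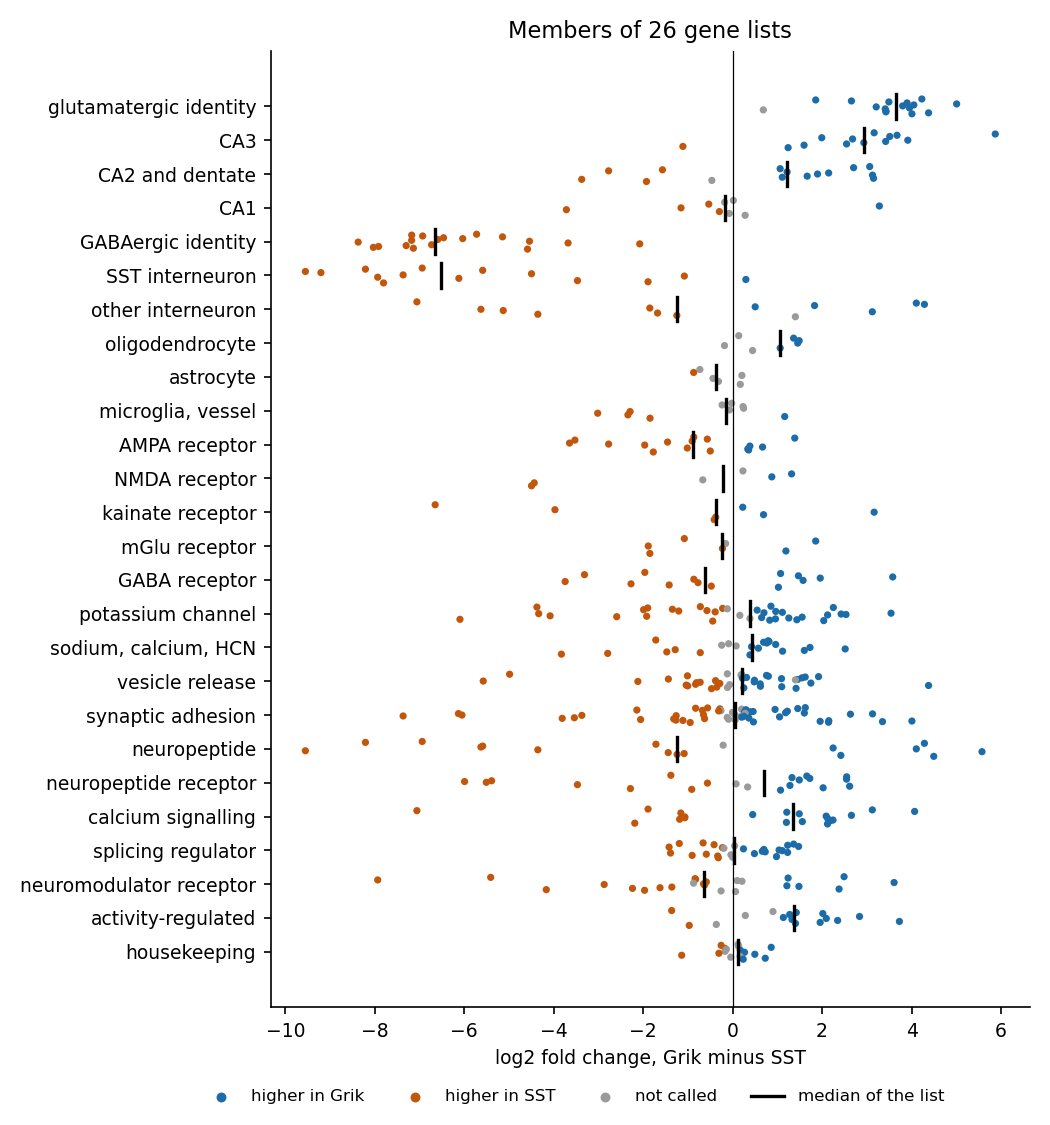
Log2 fold change, Grik minus SST, of each tested member of 26 gene lists, coloured by whether the gene passed the threshold, with a black bar at the list's median. Most glutamatergic and CA3 genes lie to the right and GABAergic and most somatostatin genes to the left, while channel, release and adhesion lists spread to both sides around medians from 0.06 to 0.43.

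Fast excitation through AMPA receptors was one of the systems in which members of a family parted. Of 16 subunits and auxiliary proteins, 5 were higher in Grik and 11 in SST, with a median log2 fold change of -0.89 (2 to 5 higher in Grik over the alternatives). Gria1 stood at 706, 730, 823 and 726 CPM in Grik and 1279, 1603, 1392 and 1171 CPM in SST (-0.87, SE 0.09, adjusted p 1.29e-08). Gria2, the subunit that keeps the receptor impermeable to calcium, ran the other way, at 428, 410, 452 and 387 CPM in Grik and 140, 165, 155 and 180 CPM in SST (1.39, SE 0.10, adjusted p 2.41e-11). Gria4 was the subunit with the largest difference, at 15.1 to 18.1 CPM in Grik and 172 to 225 CPM in SST (-3.52, SE 0.12), and Gria3 differed by -0.56. Per kilobase of exon, Gria2 stood at 27.0 CPM per kb in Grik and 10.3 in SST, and Gria4 at 2.68 and 30.9. The order of the 2 genes within a population depends on the joint length of their annotated exons, which can exceed that of the transcripts expressed. Among the auxiliary proteins Cacng4 was higher in SST (-3.64) and Cnih2, a cornichon protein that slows receptor closing, was higher in Grik (0.67, SE 0.13).

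Of 6 NMDA receptor genes tested, 2 were higher in Grik and 2 in SST. Grin1, the obligatory subunit, was not called, at 321 ± 48.1 and 274 ± 28.0 CPM (SD, n = 4 each; 0.23, 95% interval 0.01 to 0.45, adjusted p 0.0645), though it passed without Grik replicate 3 or SST replicate 2, with limma-voom and with the non-neuronal covariate. The subunit genes Grin2a and Grin2b, whose products pair with Grin1, were higher in Grik, Grin2a at 214 ± 16.9 and 85.6 ± 14.9 CPM (1.32, SE 0.12) and Grin2b at 634 ± 84.3 and 345 ± 81.5 CPM (0.88, SE 0.15; SD, n = 4 each). Grin2d and Grin3a, subunits with weak magnesium block, were higher in SST. Grin2d stood at 1.49 to 2.32 CPM in Grik and 40.5 to 42.9 CPM in SST (-4.43, SE 0.16), and Grin3a at 6.32 to 8.47 CPM and 149 to 192 CPM (-4.49, SE 0.15).

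Kainate receptor subunits also differed in both directions, with 3 of 7 list genes higher in Grik and 4 in SST. Grik1 stood at 0.366, 0.614, 0.527 and 0.668 CPM in Grik and 46.8, 58.4, 56.2 and 57.2 CPM in SST (-6.65, SE 0.20, adjusted p 3.39e-18). Grik3 was at 10.1 to 12.5 CPM in Grik and 153 to 185 CPM in SST (-3.97, SE 0.14). The high-affinity subunits Grik4, given above, and Grik5 (144 ± 17.6 and 89.4 ± 7.94 CPM; SD, n = 4 each; 0.69, SE 0.08) were higher in Grik. Grik2 was nearly level, at 51.7 ± 2.75 and 44.2 ± 5.81 CPM (SD, n = 4 each; 0.23, adjusted p 0.0413), a call lost under 9 of 23 alternatives, and 0.12 (adjusted p 0.357) without SST replicates 1 and 2. Among metabotropic receptors 2 of 7 were higher in Grik, Grm2 (1.86) and Grm7 (1.19), and 4 in SST, with Grm5 nearly level (-0.23, adjusted p 0.0395, lost under 10 of 23 alternatives, and -0.16, adjusted p 0.272, without SST replicates 3 and 5).

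GABA receptor genes separated by subunit, with 6 of 14 higher in Grik and 8 in SST. Gabra5, the alpha subunit of extrasynaptic receptors in pyramidal cells, stood at 263, 226, 266 and 298 CPM in Grik and 18.2, 25.3, 22.7 and 21.9 CPM in SST (3.58, SE 0.15, adjusted p 2.25e-15). Gabra3, another alpha subunit, was the reverse, at 9.61 to 12.4 CPM in Grik and 92.3 to 127 CPM in SST (-3.31, SE 0.11). The beta subunit Gabrb1 was higher in Grik (1.96), and the gamma subunit Gabrg1 was higher in SST, at 20.5 to 26.7 against 1.52 to 1.95 CPM (-3.74). The obligate partners of the metabotropic GABA-B receptor moved apart. Gabbr1 averaged 456 ± 40.1 and 634 ± 54.8 CPM (-0.48, SE 0.08) and Gabbr2 327 ± 37.0 and 160 ± 11.6 CPM (1.03, SE 0.08; SD, n = 4 each).

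**Figure D5:**
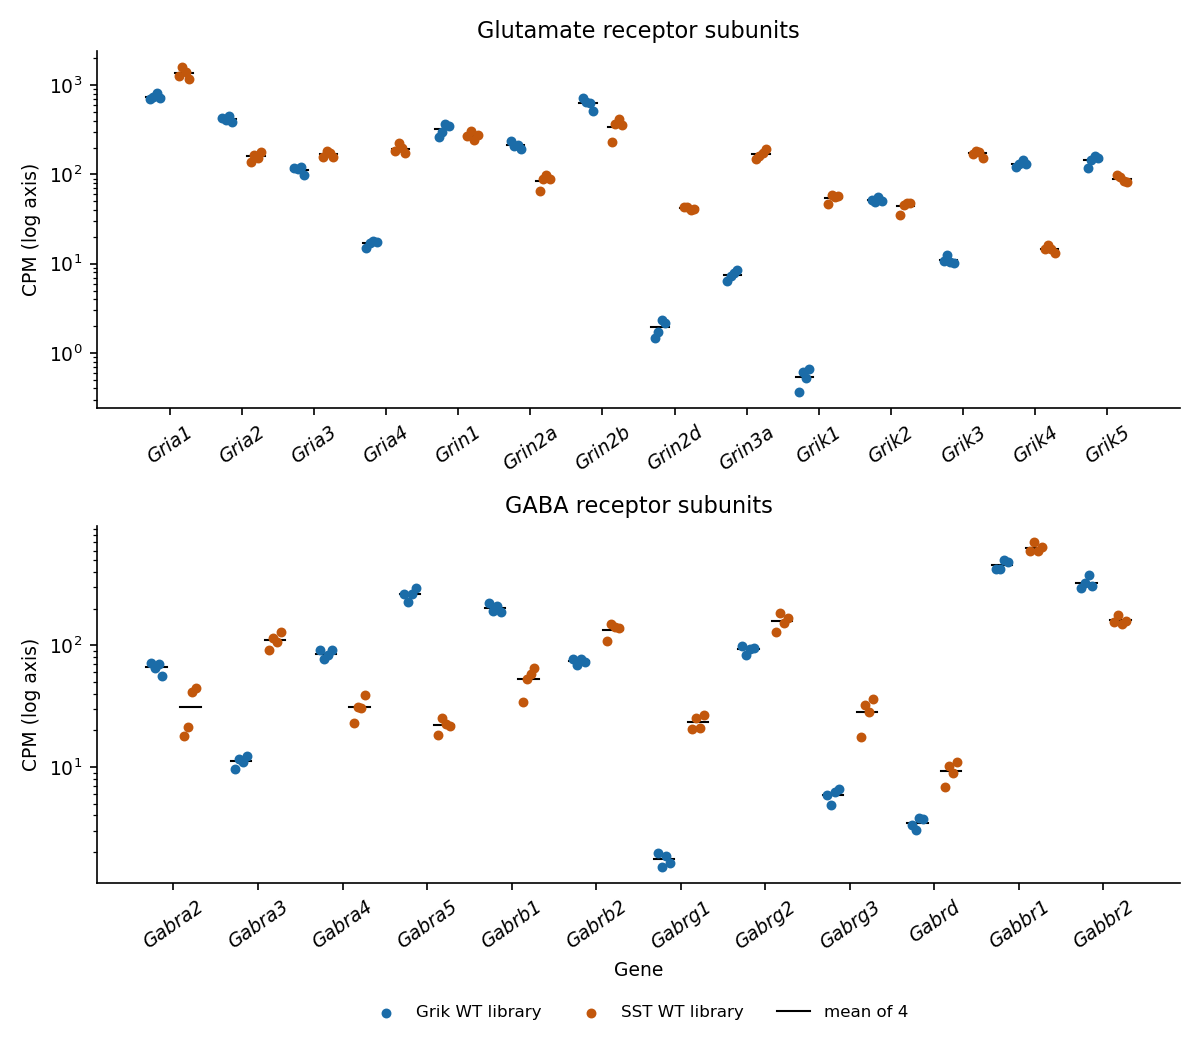
CPM of glutamate receptor subunits (top) and GABA receptor subunits (bottom) in each of the 4 Grik WT and 4 SST WT libraries on log axes, with bars at the mean of 4. Grik1, Grik3, Gria4, Grin2d and Grin3a are higher in every SST library, and Grik4, Gria2, Gabra5 and Gabrb1 in every Grik library.

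Potassium channel genes were divided almost evenly, with 17 of 35 higher in Grik and 15 in SST. The Kv3 channels of fast-firing cells were higher in SST: Kcnc1 at 132 ± 8.17 and 334 ± 48.8 CPM (-1.35, SE 0.11) and Kcnc2 at 109 ± 5.90 and 434 ± 49.1 CPM (-1.99, SE 0.08; SD, n = 4 each). Kcnmb2, an inactivating subunit of the large-conductance calcium-activated channel, stood at 0.538 to 0.618 CPM in Grik and 36.8 to 41.8 CPM in SST (-6.09, SE 0.18). Kcna3 had a log2 fold change of -4.37. Kcnq5, a subunit of the M-current, ran the other way, at 167 to 194 CPM in Grik and 12.2 to 19.5 CPM in SST (3.54, SE 0.14).

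Genes of partners of the A-type channel Kv4, given here as examples and not tested as a group, differed in both directions. The calcium-binding subunit gene Kcnip1 was at 2.77 to 5.78 CPM in Grik and 74.3 to 88.0 CPM in SST (-4.33, SE 0.19), and Dpp10 had a log2 fold change of -4.08. Kcnip2 was at 270, 278, 275 and 279 CPM in Grik and 50.1, 44.8, 47.9 and 62.2 CPM in SST (2.43, SE 0.15), and Kcnip3 had a log2 fold change of 2.54.

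Of 21 sodium, calcium and hyperpolarization-activated (HCN) channel genes, 12 were higher in Grik and 6 in SST. Scn1a, the sodium channel on which interneuron firing depends, was at 42.4 to 57.8 CPM in Grik and 133 to 185 CPM in SST (-1.72, SE 0.10). Cacna1e, the R-type calcium channel, was at 295, 298, 287 and 217 CPM in Grik and 37.5 to 55.1 CPM in SST (2.52, SE 0.19). The pacemaker channel gene Hcn3 was higher in SST (-2.79).

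Vesicle release was covered by 38 genes, with 18 higher in Grik and 14 in SST. Rims3, an active zone protein, stood at 5.29, 10.6, 8.20 and 14.6 CPM in Grik and 488, 427, 498 and 430 CPM in SST (-5.57, SE 0.27, adjusted p 5.21e-13). Syt2, a fast calcium sensor of release, was at 1.97 ± 0.721 and 62.5 ± 7.91 CPM (SD, n = 4 each; -4.98), while Stx1a, a SNARE protein, was at 241 ± 23 and 71.7 ± 4.10 CPM (1.75). Other release genes had smaller values: Snap25, a further SNARE protein, was higher in Grik by 0.62 (SE 0.07), while Syt1 and Vamp2 were not called, at -0.12 (95% interval -0.28 to 0.05, adjusted p 0.22) and -0.07 (95% interval -0.22 to 0.09, adjusted p 0.486). Under library-total scaling both Syt1 and Vamp2 passed the threshold as higher in SST, and Syt1 also under housekeeping scaling.

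Among 51 adhesion genes of synapses, Grik was higher in 22 and SST in 20. Nptx1, a secreted pentraxin that clusters AMPA receptors, was higher in Grik, as was the pentraxin receptor gene Nptxr. Nptx1 stood at 991, 1050, 1259 and 1192 CPM in Grik and 59.6, 84.3, 56.8 and 78.1 CPM in SST (4.01, SE 0.17), and Nptxr at 1434 to 1826 and 131 to 195 CPM (3.35, SE 0.12). The neurexin gene Nrxn3 was higher in SST, at 178 to 201 CPM in Grik and 282 to 373 CPM in SST (-0.83, SE 0.10). Nlgn1, a neurexin receptor of excitatory synapses, was higher in Grik (1.46). Within this list the largest differences toward SST, after Elfn1, were in Cbln4, a secreted neurexin ligand, at 0.607 to 3.30 and 108 to 160 CPM (-6.13, SE 0.59), Cntnap3 (-6.05, SE 0.37) and Adgrl2, a latrophilin (-3.81, SE 0.17). Slitrk4 was not called, with a 95% interval of the log2 fold change from -0.27 to 0.27.

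Neuropeptide genes were mostly higher in SST. Of 17 peptide and granule genes 6 were higher in Grik and 10 in SST. Besides Sst, Npy and Cort, SST libraries had more Pnoc, prepronociceptin (0.924 ± 0.408 and 44.4 ± 8.57 CPM; SD, n = 4 each; -5.59), and Tac1, the tachykinin precursor gene, at 26.4, 66.7, 34.6 and 36.8 CPM against 0.767 to 0.939 CPM in Grik (-5.63). Grik libraries had more Bdnf, the neurotrophin, at 106, 94.3, 88.3 and 74.6 CPM against 3.34 to 5.23 CPM in SST (4.50, SE 0.21), and more of the granule protein gene Chgb (1228 ± 97.5 and 229 ± 36.0 CPM; SD, n = 4 each; 2.42).

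Of 20 peptide receptor genes 10 were higher in Grik and 8 in SST. Somatostatin receptors Sstr2, Sstr3 and Sstr4 were higher in Grik (1.66, 2.55 and 1.33), with Sstr3 at 48.4 to 57.4 and 8.28 to 10.1 CPM, and Sstr1 was higher in SST (9.61 ± 1.75 and 25.0 ± 3.34 CPM; SD, n = 4 each; -1.38). Npy2r, the presynaptic neuropeptide Y receptor, stood at 76.0, 71.2, 87.7 and 88.3 CPM in Grik and 14.1, 16.3, 13.5 and 11.3 CPM in SST (2.55, SE 0.11). Thus the receptor genes Sstr3 and Npy2r were higher in Grik and their ligand genes Sst and Npy in SST. For PACAP and BDNF the arrangement was the reverse: Adcyap1r1 was at 38.8 ± 5.97 and 189 ± 22 CPM (-2.28, SE 0.15) and Ntrk2, the BDNF receptor, at 221 ± 9.82 and 416 ± 54.1 CPM (-0.91, SE 0.11; SD, n = 4 each). The opioid receptor genes Oprd1 and Oprm1 were higher in SST, Oprd1 at 50.6 to 71.0 against 0.893 to 1.11 CPM (-5.99, SE 0.17) and Oprm1 at 7.92 ± 1.55 against 0.188 ± 0.0871 CPM (SD, n = 4 each; -5.39, SE 0.29).

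All 20 calcium signalling genes were called, 13 higher in Grik and 7 in SST, with a median log2 fold change of 1.35. Their sum was 19340 to 20560 CPM in Grik and 4794 to 5814 CPM in SST. Within calcium/calmodulin-dependent kinase II the alpha and beta subunits were higher in Grik (Camk2b at 2110 ± 43.3 and 495 ± 12.4 CPM; 2.09, SE 0.06) and the delta subunit in SST (Camk2d at 39.3 ± 4.42 and 82.4 ± 19.8 CPM; -1.07, SE 0.15; SD, n = 4 each).

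Splicing regulators, the class to which the targeted gene belongs, gave 12 genes higher in Grik and 10 in SST out of 26, of which 6 and 3 by at least 2-fold. Khdrbs3 stood at 327, 330, 347 and 338 CPM in Grik and 134, 124, 123 and 140 CPM in SST (1.37, SE 0.08, adjusted p 6.90e-14). Its paralogs ran the other way, Khdrbs2 at 5.21, 4.45, 3.88 and 5.24 CPM in Grik and 12, 10.6, 10.6 and 9.73 CPM in SST (-1.19, SE 0.12) and Khdrbs1 at 124 ± 12.1 and 196 ± 7.5 CPM (SD, n = 4 each; -0.66, SE 0.09). Rbfox1 and Rbfox3 were higher in Grik (1.23 and 1.48) while Rbfox2 was not called (400 ± 8.75 and 387 ± 26.4 CPM; SD, n = 4 each; 95% interval of the log2 fold change -0.09 to 0.19). Nova1 and Celf6 were higher in SST (-1.42 and -1.39). Elavl3 and Srrm3 were not called, with 95% intervals of -0.26 to 0.18 and -0.20 to 0.20.

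Of 24 receptor genes for neuromodulators, 13 were higher in SST and 6 in Grik. Their summed level ran the other way, at 1015 to 1216 CPM in Grik and 377.9 to 438.0 CPM in SST. Adora1, the inhibitory adenosine receptor, stood at 534, 544, 638 and 589 CPM in Grik and 43.0, 55.6, 45.7 and 44.2 CPM in SST (3.61, SE 0.13). Muscarinic receptors divided: Chrm1 was at 241 ± 23.2 and 42.9 ± 8.05 CPM (2.49, SE 0.11) and Chrm2, which sits on interneuron terminals, at 0.597 ± 0.252 and 25.3 ± 3.54 CPM (-5.41, SE 0.25; SD, n = 4 each). The serotonin receptor gene Htr1a was higher in SST (-0.65) and the dopamine receptor gene Drd5 in Grik (2.38).

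Of 16 activity-regulated genes, 11 were higher in Grik and 2 in SST. Nr4a3 stood at 356, 345, 271 and 290 CPM in Grik and 37.0, 26.4, 11.3 and 20.3 CPM in SST (3.73, SE 0.27), and its log2 fold change was 4.32 without SST replicates 1 and 2. Egr3 (74.7 ± 7.87 and 10.4 ± 3.03 CPM; 2.84) and Arc (103 ± 23.7 and 25.4 ± 8.92 CPM; 2.02; SD, n = 4 each) were higher in Grik. Fos went the other way, at 13.1, 14.5, 11.3 and 9.91 CPM in Grik and 59.7, 29.1, 6.51 and 30.1 CPM in SST, and its groups overlapped. Its log2 fold change of -1.36 (SE 0.54, adjusted p 0.0406) was -0.58 (adjusted p 0.463) without SST replicates 1 and 2, and the call was lost under 14 of 23 alternatives.

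Genes whose difference lay near 0, called or not, can be bounded under the main scaling. Of the 8029 genes not called and those called with small differences, 1127 had a 95% interval of the log2 fold change within 0.25 of 0, of which 1103 had at least 10 CPM in both populations. Among the list members named here these were Vamp2, Rbfox2 and Srrm3. The intervals do not cover the choice of scaling. Library totals alone moved the median log2 fold change of all genes from -0.03 to -0.16, and Vamp2 then passed as higher in SST. Of 16 housekeeping genes 6 were higher in Grik, such as Actb (0.73) and Ywhaz (0.86), and 4 in SST. Over the alternatives these counts ran from 3 to 6 and from 1 to 7. Gapdh was not called, at 2432 ± 196 and 2677 ± 139 CPM (SD, n = 4 each; -0.14, adjusted p 0.134), and passed as higher in SST under library-total and housekeeping scaling and with limma-voom.

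Grik was also set against the CamK pyramidal libraries. That comparison uses the same Grik WT libraries, so the values stand side by side only, and 7912 genes (42.0%) were called in it, 3974 higher in Grik and 3938 higher in CamK. Glial and vascular lists moved with it: oligodendrocyte genes summed to 144.6 to 220.8 CPM in CamK WT against 693.8 to 936.7 in Grik WT, astrocyte genes to 16.9 to 28.9 against 57.0 to 66.9 and microglial and vascular genes to 12.6 to 17.9 against 31.8 to 51.6. With their mean level as a covariate 4255 genes were called. That level did not overlap between Grik WT and CamK WT, so the fit cannot cleanly tell it apart from the population difference. The part of these lists in single genes was not tested. Grik4 averaged 30.3 ± 4.11 CPM (SD, n = 4) in CamK WT, a log2 fold change of 2.12 (SE 0.10) for Grik minus CamK, and Cpne4 and Iyd had 2.32 and 2.49. Slc17a7 and Nrgn were closer, with 0.71 (SE 0.24, adjusted p 0.0226) and -0.21 (SE 0.16, adjusted p 0.322). Calb2 averaged 12.9 ± 3.88 CPM in CamK WT (SD, n = 4; 4.68, SE 0.34). Mpped1 and Wfs1 were higher in CamK than in Grik (-4.38 and -3.85). For Gabra5, Gria2 and Grin2a the Grik minus CamK values were 0.17 (SE 0.14), 0.06 (SE 0.10) and -0.17 (SE 0.12), and none of the 3 was called.

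Whether the Grik and SST difference depended on the genotype label was tested by subtracting its log2 value in the libraries labelled cKO from that in WT. Of all genes tested, 2 of 18823 genes (0.0106%) passed, Khdrbs2 and Khdrbs3, while 727 genes had an unadjusted p under 0.05. Both had a less positive Grik minus SST value in WT. For Khdrbs2 it was -1.19 in WT and 0.40 (SE 0.12) in the libraries labelled cKO, where Grik averaged 21.1 ± 1.02 CPM and SST 16 ± 3.66 CPM (SD, n = 4 each). For Khdrbs3, the gene targeted in the cKO, it was 1.37 in WT and 2.14 (SE 0.08) in the libraries labelled cKO, with 414 ± 18.0 CPM in Grik and 93.8 ± 10.5 CPM in SST (SD, n = 4 each). The deleted exons are not given in the sources used here, and counts over the whole gene do not measure their loss.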

How the data were processed

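PolyA RNA of labelled hippocampal neuron populations was sequenced, and the authors deposited 1 table of whole-number read counts per gene with a column for each of 23 libraries. Per the submitters' processing notes, Trimmomatic, STAR and the mouse build GRCm38 were used. The STAR version, annotation release, strand setting, read filters and isolation method are not given in the sources used here. Summary rows that name no gene held 12.4 to 15.8% of a library's reads in the 8 wild-type Grik and SST libraries and were dropped. Of 45706 gene IDs, 45143 matched GENCODE M21, used for names, lengths and overlaps. Groups were taken from the labels.

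Counts of all 23 libraries entered 1 fit with edgeR 4.0.16 in R 4.3.3 (TMM scaling, filterByExpr over 6 groups, quasi-likelihood test, 17 residual degrees of freedom), with Benjamini-Hochberg adjustment over 18823 genes and a threshold of 0.05. The common biological coefficient of variation was 16.33%. Adjusted p-values are from this fit unless another tool, a left-out library or another alternative is named beside them; those of alternatives are from edgeR refits, except with limma-voom and DESeq2. CPM were computed here from the counts with the TMM-scaled library sizes. At depths of 90806560 to 112993538 reads in genes, spread between libraries was above counting error over genes as a whole. In genes with few reads, counting error also limits the precision. The script was tested on simulated data.

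Named genes were the 4 markers, the 15 genes in each direction with the largest fold and the 10 with the largest CPM difference (called, at least 10 CPM in the higher population, no overlap of libraries, with a gene symbol that is no clone number or pseudogene), examples from 26 lists, and genes that passed the test by genotype label. Members, lists and the rule were chosen with earlier results of these data known. The alternatives were DESeq2 1.42.0, limma-voom (limma 3.58.1), other scalings and filters, thinned counts, covariates, a replicate block, wild-type Grik and SST libraries alone, and leaving out libraries. Of the 23 alternatives, 3 were added after seeing the data: leaving out SST replicates 1 and 2, or 3 and 5, and a covariate of sex-linked genes. Some genes that this rule picks are not reported here.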

Additional observations from a re-analysis of the deposited data

Results flagged for a closer look

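Among the genes named in the text, 340 groups of 4 libraries were tested for a library far from the other 3 by Dixon's criterion, and 24 met it, where chance alone flags about 1 in 20, or 17 groups. Among the SST WT libraries, replicate 5 was apart in 8 genes. It was highest for Zwint (2873 CPM), Slc17a6 (1.309), Coch (16.37), Wfs1 (41.26), Sstr1 (30.0), Htr1a (37.23) and Ywhaz (1015) and lowest for Mndal (0.141). Replicate 1 was highest for Sp9 (69.77 CPM) and Grm2 (7.062) and lowest for Trpc6 (46.1) and Reln (214.9). Replicate 2 was highest for the vesicular glutamate transporter gene Slc17a7 (120.8 CPM) and for Sv2b (70.18), and replicate 3 for Rbfox2 (426.8).

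Among the Grik WT libraries, replicate 6 was highest for Trp53bp1 (4654 CPM), Cntnap3 (0.6445) and Chrm2 (0.9727) and lowest for Cacna1e (216.5). Replicate 5 was highest for Neurod2 (273 CPM) and lowest for Tbr1 (61.21). Replicate 4 was lowest for Rgs5 (24.1 CPM). Replicate 3 was highest for Chodl (0.03435 CPM, from 3 reads) and lowest for Camk2b (2046).

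The Grik minus SST difference depended on the genotype label for Khdrbs3, by -0.78 (SE 0.11, adjusted p 0.00135), and for Khdrbs2, by -1.59 (SE 0.17, adjusted p 4.39e-05), both as WT minus labelled cKO in the edgeR fit.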

How the results depend on the processing

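The count of genes called between Grik and SST stayed between 9204 and 11423 under the 15 alternatives that left out no single library and between 10113 and 10471 when 1 library was left out. Leaving out 1 library gave 5038 to 5214 genes higher in Grik, 4999 to 5355 higher in SST, 2147 to 2214 and 2571 to 2675 with at least 2-fold differences, 184 to 190 and 167 to 174 list members, 10805 to 10924 calls in the libraries labelled cKO, 7219 to 7993 against CamK, and 2 to 3 by genotype label. Requiring 1 CPM in 4 libraries, which tests fewer genes, left 1792 genes at least 2-fold higher in SST against 2742. The test by genotype label gave 4 genes with DESeq2 and 5 without SST replicates 3 and 5, against 2. With a non-neuronal covariate the comparison with CamK gave 4255 genes against 7912. That covariate ran from 0.165 to 1.181 in CamK WT and from 2.246 to 2.854 in Grik WT. It did not overlap between them, so the fit cannot cleanly tell it apart from the population difference. The cause was not tested. Without SST replicates 1 and 2 there were 9383 calls (4628 higher in Grik) and without 3 and 5 there were 9638 (4781).

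Grik and SST share only the replicate numbers 3 and 5, whose deviations correlated at 0.154 and -0.156 across genes. Pairs with unlike numbers ran from -0.175 to 0.164. So few same-numbered pairs cannot decide whether the numbers pair the samples, and the main fit took them as unpaired. A replicate block gave 10065 calls (5013 higher in Grik and 5052 in SST). Under that block Map1b (-0.70, adjusted p 0.224), Setd2 (-1.34, adjusted p 0.124), Gfap (-0.48, adjusted p 0.237), Grik2 (0.18, adjusted p 0.145) and Fos were not called, and the log2 fold changes of Dlx6 and Gad2 were -7.88 and -7.77 against -7.17 for both. Of 170 named genes, 159 were called and 152 stayed called under every alternative; none reversed. Over 3910 such values, 56 calls were lost and 12 gained. Among small list counts, called astrocyte genes higher in SST ran from 0 to 2 against 1, activity-regulated genes higher in SST from 1 to 3 against 2, CA1 genes higher in Grik from 1 to 2 against 1 and somatostatin genes higher in Grik from 0 to 1 against 1. Sst had a log2 fold change of -6.10 with limma-voom against -6.94. Genes with few reads in 1 population, such as Cort and Chodl, have fitted folds that rest on those reads. With 4 libraries in a group, the spread between libraries limits what can be detected, and in genes with few reads counting error does too.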
